A study of Mus musculus with 4 samples.

Results

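The ATF and C/EBP stress transcription factors are described here across astrocyte-enriched cultures (AECs) of mouse brain with and without oxygen-glucose deprivation (OGD). The 8 genes, *Atf3*, *Atf4*, *Atf5*, *Ddit3*, *Cebpa*, *Cebpb*, *Cebpd* and *Cebpg*, were chosen by name, with earlier results of these data known. They are read by 9 of the 39429 non-control probes on the array, under 8 of its 29676 gene names, with 2 probes for *Atf4* and 1 for each of the others. The 9 probes all had signals well above background on every array, none was saturated or marked as an outlier, and all 9 passed the filter on dim probes.

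The study compared untreated AECs (n = 2) with AECs kept under OGD, that is under hypoxia in medium without glucose, for 15 h (n = 2), as a culture model of ischemia. The AECs were cortical mixed glia of newborn ICR mice, with no genetic change stated, and for both groups PLX3397, which blocks the CSF1 receptor that microglia need, had been used to remove microglia. According to the methods, wells held independent cultures from different pups, and each RNA sample was labeled with the dye Cy3 and hybridized to its own array. A cell culture under OGD has no blood flow and no infiltrating cells, and the untreated wells are the only controls.

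All members belong to the bZIP proteins, which bind DNA as pairs through a basic region and a leucine zipper. In the integrated stress response, kinases that sense unfolded protein, amino acid shortage, heme shortage or double-stranded RNA phosphorylate the initiation factor eIF2α, which lowers protein synthesis as a whole while the mRNAs of ATF4, ATF5 and CHOP are translated better. ATF4 then turns on genes of amino acid supply and redox balance and the genes of further factors, among them *Atf3* and *Ddit3*, and it often binds as a pair with a C/EBP protein. In glia, C/EBPβ and C/EBPδ are best known for their part in inflammatory gene expression. Much of ATF4 control lies in translation, so an mRNA level does not give the amount of the protein.

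With arrays scaled to their 75th percentile, 5 of the 8 members rose more than 2-fold after OGD, in the order *Atf3*, *Cebpb*, *Ddit3*, *Atf4* and *Cebpg*, by 13.4-fold to 3.39-fold with the brightest probe of each gene. Scaled to spiked-in control RNA, the same 5 were higher by less, and *Atf4* (1.64-fold) and *Cebpg* (1.39-fold) stayed under 2-fold. *Cebpa* was 1.56-fold lower, a call that did not hold with normexp background correction, with the methods' t-test or without either untreated array, and it was 3.81-fold lower with spiked-in scaling. *Cebpd* and *Atf5* were higher by 1.77-fold and 1.38-fold at the 75th percentile, but both were lower with arrays scaled to the spiked-in control RNA, so no direction is given for them. By adjusted p of limma alone, 7 members were higher and 1 lower, where 37.1% of all 20954 genes tested were higher and 27.9% were lower. Past a 2-fold limit, 5 of 8 members were higher, against 12.7% of all genes, and 1 was past the 10-fold limit that the methods set, against 0.711%.

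These values rest on how arrays of unequal brightness are set against each other. The processed signal is the brightness of a spot after the scanner software subtracted background. Its 75th percentile fell from 2135 and 2164 without treatment to 887 and 776 with OGD, lower after OGD by 1.37 on the log2 scale in the mean. A normalized signal below is the log2 processed signal minus that percentile of the same array, and a fold change is the difference between group means of it. On this scale the median over all genes tested was at 0.16. Scaled to the spiked-in RNA, which by design is added in equal amount to each sample, that median was at −1.13. The methods do not describe this addition, so equal amounts are assumed. The 9 spiked-in probes above background differed between the groups by −0.085 in the mean and from −0.75 to 0.28 singly. The 4 arrays shared 1 slide and 1 scan.

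*Atf4*, the central factor of the integrated stress response, was read by a bright and a dimmer probe. The brighter lies at chr15:80087902-80087961 (mm9) and had a processed signal of 78900 and 80058 in untreated AECs and 129254 and 117154 after OGD. The dimmer lies at chr15:80086639-80086698 and had 1688 and 1870 before against 6497 and 4872 after. With both probes the OGD arrays lay above the untreated ones before any scaling. The normalized difference was 2.00 ± 0.076 (SE; adjusted p of limma = 0.000757) for the brighter and 3.04 ± 0.12 (adjusted p of limma = 0.000758) for the dimmer, 4.01-fold and 8.20-fold. The log2 ratio of the dimmer to the brighter probe within an array was higher after OGD by 1.03 (SE 0.15), with each pairing of an OGD with an untreated array between 0.83 and 1.23. The probes thus gave unequal changes, and scaling between arrays does not enter that ratio.

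*Atf3*, which codes for a factor known to act on its targets mainly as a repressor, had the largest difference of the members. Its probe lies at chr1:192994547-192994606 (mm9). The processed signal was 1601 and 1676 in untreated AECs and 8648 and 8326 after OGD, so the groups stood apart on the signal as deposited. Normalized, the arrays differed by 3.75 ± 0.090 (adjusted p of limma = 0.000719). It ranked 150 from the top among the 28163 probes tested, and 99.5% of them had a smaller value.

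ATF4 and C/EBP proteins together are known to bind a composite element. Its letters TGATGNAA were searched on both strands of 300-base RefSeq promoter windows (GRCm38.p6), which run from 250 bases before to 50 after a start. They were in 3.97% of all 32851 windows. A window was given for 7 of the 8 members, all but *Cebpd*, and of their 8 windows only the *Atf3* window held the element, 110 bases before the start. The *Atf3* stretch is shown because *Atf3* rose most, *Chac1* and *Asns* because they are well-known ATF4 targets, and *Slc7a11* because it was the ATF4 target that was called lower, though not with normexp background correction. Each is printed 5′ to 3′ on the strand of its gene, with each copy of the element or its reverse complement in capitals.
Atf3, chr1:191183396-191183483, minus strand: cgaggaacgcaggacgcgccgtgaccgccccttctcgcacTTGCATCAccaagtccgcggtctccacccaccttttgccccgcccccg
Chac1, chr2:119351029-119351076, plus strand: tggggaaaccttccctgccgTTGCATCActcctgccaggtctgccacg
Asns, chr6:7693210-7693252, minus strand: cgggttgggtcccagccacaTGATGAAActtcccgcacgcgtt
Slc7a11, chr3:50443652-50443699, minus strand: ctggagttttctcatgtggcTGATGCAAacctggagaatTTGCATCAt

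The cyclic AMP response element TGACGTCA was in 1.79% of all windows and the C/EBP palindrome TTGCGCAA in 0.183%, and neither was in a member window (0 of 8). Of the cores of the hypoxia response element, GCGTG was in 5 of 8 member windows, those of *Atf3*, *Atf4*, *Cebpb*, *Cebpg* and *Ddit3*, and in 32.4% of all windows. In the related gene lists described below its share ran from 20% for C/EBP targets to 77.8% for CHOP targets, with 64.5% for ATF4 targets. ACGTG was in 1 member window, that of *Ddit3*, and in 19.6% of all. A match is a description of letters and not a bound site.

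*Ddit3* codes for CHOP, a factor known for its part in cell death after prolonged stress of the endoplasmic reticulum. Its probe of the array design spans chr10:126732518-126732821 (mm9). The processed signal was 1567 and 1674 before and 4365 and 4183 after OGD, with no overlap between the groups. After normalization it was higher by 2.77 ± 0.092, a 6.83-fold rise (adjusted p of limma = 0.000719).

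*Atf5* codes for a factor linked to the unfolded protein response of mitochondria and, in brain, to neural progenitors. Its probe at chr7:52067627-52067686 (mm9) had a processed signal of 56816 and 52880 in untreated AECs and 32782 and 26072 after OGD. Both OGD arrays lay below both untreated arrays as deposited, by 1.87-fold in the mean. After scaling to the 75th percentile the order turned, with a normalized difference of 0.47 ± 0.0995 (adjusted p of limma = 0.0192). With quantile normalization it was −0.31 (adjusted p of limma = 0.0411), and with spiked-in scaling −0.82 (adjusted p of limma = 0.00190). It ranked 10199 among the 28163 probes, and 63.8% of them had a smaller difference.

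**Figure D1:**
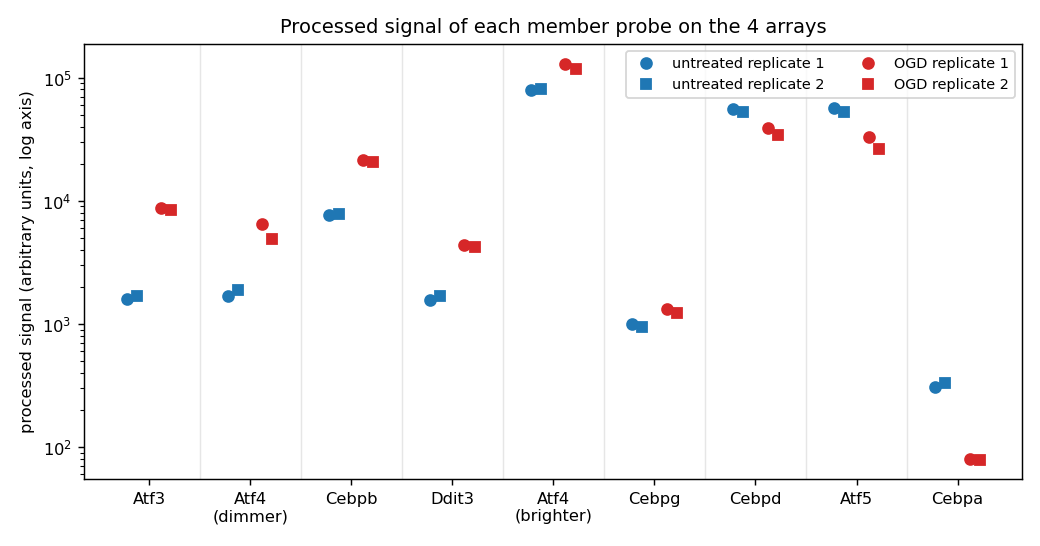
Processed signal (log axis, arbitrary units, as deposited) of the 9 member probes on each of the 4 arrays, blue for untreated and red for OGD, circles for replicate 1 and squares for replicate 2. *Atf3*, both *Atf4* probes, *Cebpb*, *Ddit3* and *Cebpg* were brighter on both OGD arrays, while *Atf5*, *Cebpd* and *Cebpa* were dimmer on both.

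Of the C/EBP genes, *Cebpb* had the largest difference. It codes for C/EBPβ, a regulator of cytokine and acute-phase genes and a known partner of ATF4 and CHOP. Its probe at chr2:167515828-167515887 (mm9) had a processed signal of 7656 and 7768 before and 21358 and 20438 after OGD. The untreated arrays were nearly equal, and both OGD arrays were above them. The normalized difference was 2.81 ± 0.087, a 7.02-fold rise (adjusted p of limma = 0.000719).

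*Cebpg* codes for C/EBPγ, a C/EBP protein without an activation domain of its own that pairs with ATF4. Its probe at chr7:35835477-35835536 (mm9) had a processed signal of 998 and 942 before and 1322 and 1218 after OGD. The groups did not overlap, though as deposited they differed by 1.31-fold only. The normalized difference was 1.76 ± 0.087, or 3.39-fold (adjusted p of limma = 0.000926), and with spiked-in scaling 0.47.

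*Cebpd* codes for C/EBPδ, known in astrocytes from inflammatory activation. Its probe at chr16:15888459-15888518 (mm9) had a processed signal of 55076 and 52517 before and 39116 and 34371 after OGD, lower on both OGD arrays by 1.47-fold in the mean. The normalized difference was 0.82 ± 0.080 (adjusted p of limma = 0.00272), but it was 0.016 (adjusted p of limma = 0.875) with quantile normalization and −0.47 (adjusted p of limma = 0.00883) with spiked-in scaling. Its difference was above that of 79.5% of all probes at the 75th percentile, 60.6% with normexp and 50.2% with quantile normalization.

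*Cebpa*, which codes for C/EBPα, a factor of myeloid and fat cell differentiation, was the only member below 0 with arrays scaled to the 75th percentile. Its probe at chr7:35906517-35906576 (mm9) had a processed signal of 310 and 331 before and 79.5 and 79.1 after OGD, 4.04-fold lower as deposited. The normalized difference was −0.64 ± 0.10 (adjusted p of limma = 0.00891). It did not pass the threshold with normexp background correction (−0.16, adjusted p of limma = 0.146), nor without untreated replicate 1 (adjusted p of limma = 0.0581) or without untreated replicate 2 (0.0733).

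In brain *Cebpa* is a gene of microglia, and these cultures had been depleted of them in both groups. Of 8 microglial markers, 8 were well above background on both untreated arrays and 6 on both OGD arrays. Their summed processed signal was 4971 and 4420 in untreated AECs and 5979 and 5069 after OGD. *Cd68*, a lysosomal gene, alone was brighter on both OGD arrays (1157 and 1213 before, 4301 and 3778 after). The other 7 were dimmer on both as deposited, as were *Cebpa* and 90.8% of all genes tested. Without *Cd68* the sum was 3814 and 3207 before and 1678 and 1292 after, most of it from *Itgam* (3328 and 2726 before, 1376 and 1015 after). After scaling to the 75th percentile, by adjusted p of limma, 3 of the 8 were higher (37.1% of all genes), 1 was lower (27.9% of all genes) and 4 did not pass, and with spiked-in scaling 1 was higher and 5 were lower. The part of microglia in the value of *Cebpa* was not tested. In such bulk RNA, fewer cells of a type and less RNA per cell cannot be told apart. Of the astrocyte markers, 10 of 10 were well above background on all 4 arrays, with a summed signal of 358848 and 321649 before and 201918 and 180696 after OGD, so the labeled cell type was present in both groups. Scaled to the 75th percentile 6 of the 10 were higher and *Sox9* was 2.87-fold lower, whereas with spiked-in scaling 0 were higher and 8 lower, where 3.86% of all genes were higher and 83.4% lower. Markers of other cell types that were lower when scaled to the 75th percentile included *Olig2* (5.68-fold), *Pdgfrb* (5.35-fold) and *Pdgfra* (2.42-fold). The part of such cells in the members' values was not tested.

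**Figure D2:**
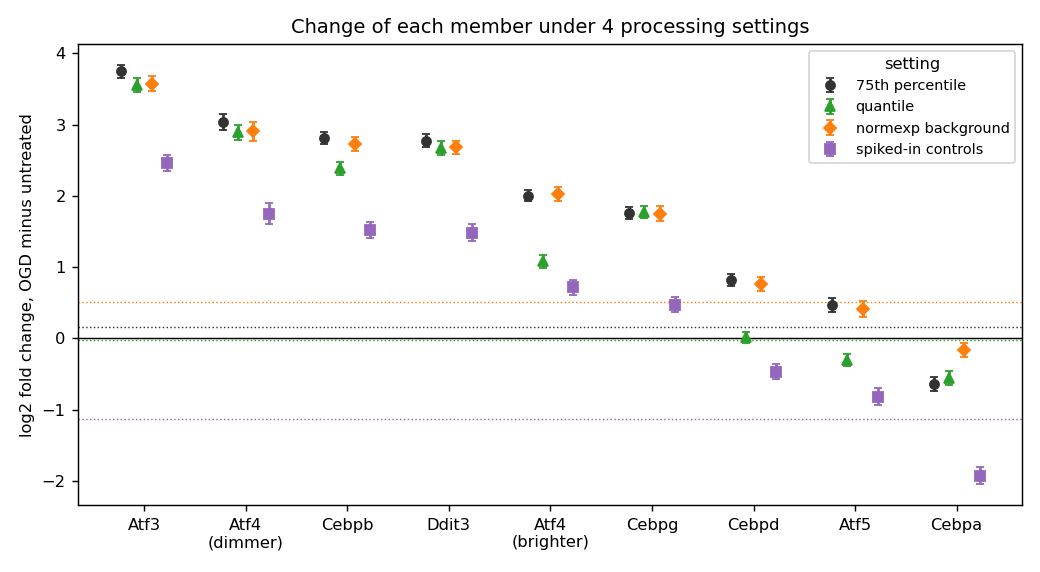
Difference between OGD and untreated AECs (log2, bars show the standard error, 2 arrays a group) of each member probe under 4 processing settings, with a dotted line at the median of all genes under each. *Atf3*, *Atf4*, *Cebpb*, *Ddit3* and *Cebpg* stay above 0 under each setting and *Cebpa* below, whereas *Cebpd* and *Atf5* cross 0.

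Under spiked-in scaling the difference was 2.46 for *Atf3*, 1.52 for *Cebpb*, 1.48 for *Ddit3* and 0.72 for *Atf4* with its brighter probe, and −1.93 for *Cebpa*. So 5 members were higher and 3 lower there, at a median of all genes of −1.13. The 5 that rose more than 2-fold stayed higher under each of 5 scalings or background corrections, the 75th percentile included. For *Atf4* the brighter probe was the more sensitive, with a difference of 1.08 under quantile normalization.

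The ratio of 2 members on the same array needs no scaling between arrays. Of the 28 pairs, 27 had ratios that did not overlap between the groups, and so had 83% of all pairs of tested genes, so non-overlap was common on these arrays. Here 2 arrays a group allow an exact two-sided permutation p of 0.333 at the lowest. *Atf3* against *Cebpa* shifted most, by 4.39 on the log2 scale (SE 0.027), which is 20.9-fold. Within the C/EBP family the order of change was *Cebpb*, *Cebpg*, *Cebpd* and *Cebpa*. *Cebpb* gained 1.05 on *Cebpg*, *Cebpg* gained 0.94 on *Cebpd*, and *Cebpb* gained 3.45, or 10.9-fold, on *Cebpa*. The pair that overlapped was *Cebpb* and *Ddit3*, whose ratio differed by 0.038 (SE 0.037), with single pairings from −0.00032 to 0.076 (exact permutation p = 0.667). *Atf4*, with its brighter probe, gained 0.24 (SE 0.054) on *Cebpg*, and *Ddit3* gained 0.77 on *Atf4*. With the dimmer *Atf4* probe the latter turned, since *Atf4* gained 0.26 (SE 0.18) on *Ddit3*, and it gained 1.28 (SE 0.19) on *Cebpg*. Against *Cebpb* the dimmer probe overlapped between the groups, at 0.23 (SE 0.19). Among the members without a settled direction, *Cebpd* gained 0.35 on *Atf5*, and *Atf5* gained 1.11 on *Cebpa*.

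**Figure D3:**
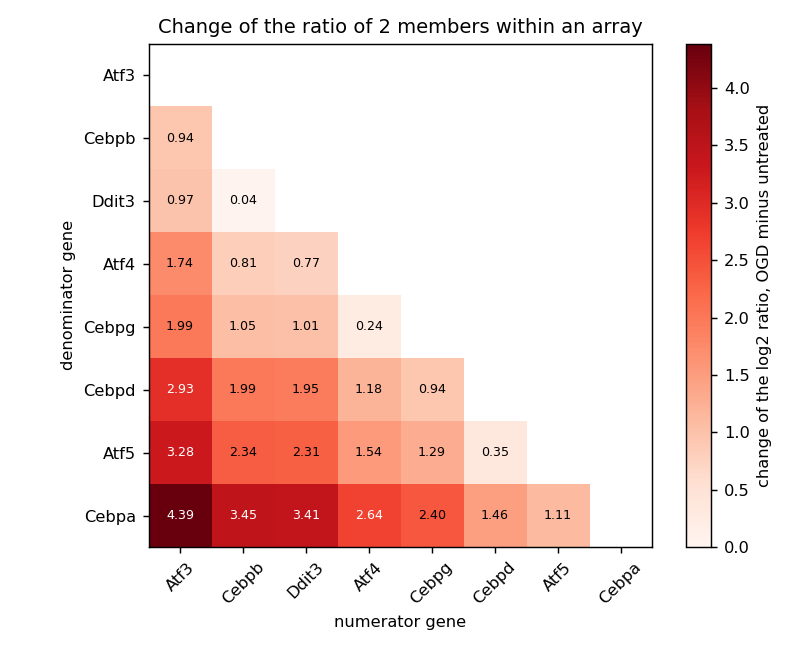
Change after OGD of the log2 ratio of each pair of members within an array, as the gene of the column over the gene of the row, from the brightest probe of each gene and the means of 2 arrays a group. *Atf3* gained on all other members, and *Cebpb* and *Ddit3* differ by 0.038.

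For the member with the largest rise and the one that fell, the most alike probes of other genes were sought among 20373 probes well above background on all arrays. Likeness was the root mean square distance between the 4 normalized log2 signals, each profile centered on its mean. Closest to *Atf3* were *Nfil3* (0.049), *Lrrfip1* (0.057) and *Gna13* (0.059). *Nfil3* codes for a bZIP repressor. Closest to *Cebpa* were *Atxn1l* (0.013), *Spty2d1* (0.016) and *Mtrr* (0.017). With 2 groups of 2 arrays, likeness is mostly an equal size of change.

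The genes around the members were described by lists, with no test of a list. Each is to be read against all 20954 genes, of which 37.1% were higher and 27.9% lower at a median of 0.16 with the 75th percentile, but 3.86% higher and 83.4% lower at a median of −1.13 with spiked-in scaling. Of 7 regulators of eIF2α phosphorylation, 2 rose, 1 fell and 4 did not pass, with a median of 0.18, near that of all genes. With spiked-in scaling 2 were higher and 5 lower. Those that rose code for the subunits that direct a phosphatase to eIF2α, *Ppp1r15a* (3.20 ± 0.096, adjusted p of limma = 0.000719), which is itself a CHOP target, and *Ppp1r15b* (2.77 ± 0.11). *Ppp1r15a* had a processed signal of 10299 and 11020 before and 38447 and 37358 after OGD. *Eif2ak2*, which codes for the eIF2α kinase that senses double-stranded RNA, fell by 2.43 ± 0.098 (adjusted p of limma = 0.000766), from 3971 and 3895 to 321 and 249. *Eif2ak4*, the kinase gene for amino acid shortage, had probes that disagreed, the brightest at −0.50 (adjusted p of limma = 0.137) and the others at 0.90 and 2.17, so no direction is given for it.

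Of 31 ATF4 targets, 28 were higher and 1 lower, and 2 did not pass. Their median was 1.21, against 0.16 for all genes. Past 2-fold 20 were higher, and past 10-fold 6. With spiked-in scaling 11 were higher and 11 lower, at a median of −0.076 against −1.13 for all genes. *Chac1*, which codes for an enzyme that breaks down glutathione, rose 22.8-fold, from 2455 and 2307 to 22372 and 19670. *Trib3*, a pseudokinase gene that curbs ATF4 and is also a CHOP target, rose 20.5-fold, from 1067 and 1139 to 9413 and 8070. *Adm2* rose 59.2-fold, *Gdf15* 11.5-fold and *Mthfd2* 10.1-fold. *Fgf21* was too dim on both untreated arrays to stand well above background, and it rose at least 51.9-fold, a bound set by the lowest signals above background. *Slc7a11*, which codes for the cystine transporter, fell by 1.36 ± 0.12 (adjusted p of limma = 0.00207), from 119 and 122 to 17.7 and 18.4. With normexp background correction it was at −0.029 (adjusted p of limma = 0.792), so the call depends on the background correction. *Pycr1*, a gene of proline synthesis, was at −0.54 (adjusted p of limma = 0.0645), with its other probe at 0.038, and has no settled direction. It was at 0.33 with normexp (adjusted p of limma = 0.0114) but at −0.69 with the percentile over detected probes (0.0314) and at −0.78 without OGD replicate 1 (0.00737).

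The composite element was in 12 of the 31 promoter windows given for the ATF4 targets, or 38.7%. No window was given for *Cth*, *Eif4ebp1*, *Nars*, *Slc7a5* and *Wars*, and some other targets had several. Of the 12 genes with it, 10 were higher and 1 lower, at a median of 1.12, and of the 14 with a window but no match, 14 were higher, at a median of 1.32. These counts are a description, with no test of the difference. *Slc7a11* holds it at 2 places in its window, both in the stretch printed above.

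**Figure D4:**
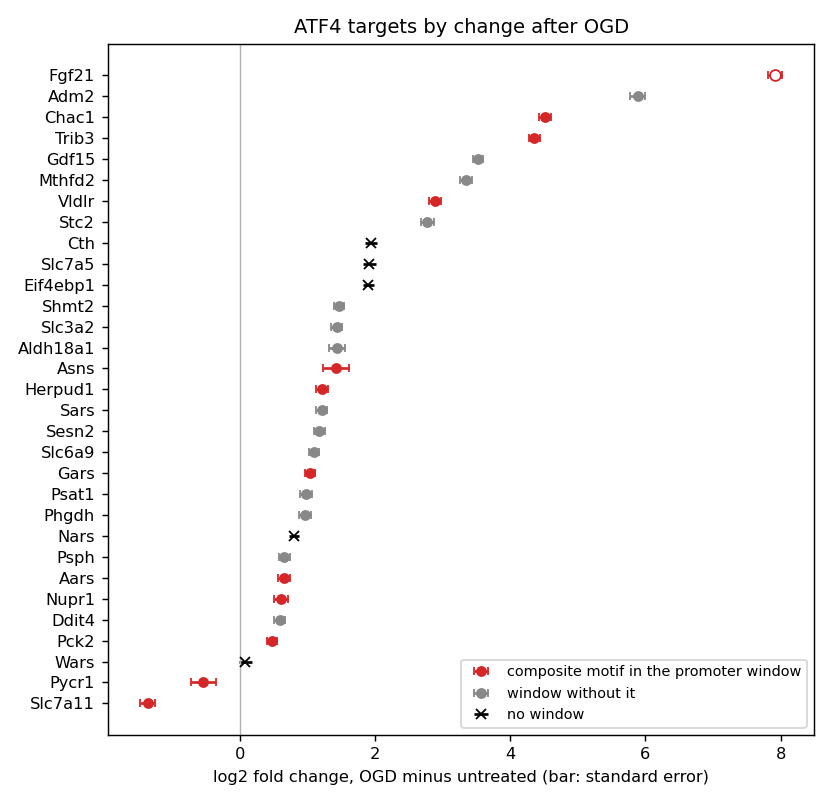
Difference between OGD and untreated AECs (log2, brightest probe, bars show the standard error, 2 arrays a group) of 31 ATF4 targets, colored by whether the promoter window holds the composite element, with the open point, *Fgf21*, a fitted value that the report gives only as a bound. Of the targets 28 lie above 0 past the threshold, with and without the element, and *Slc7a11* is lowest.

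Of 7 CHOP targets, 5 rose, with a median of 2.84, and 2 did not pass. With spiked-in scaling 4 were higher and 3 lower. Beside *Trib3* and *Ppp1r15a*, these were *Ero1l*, an oxidase gene of the endoplasmic reticulum (22.1-fold), and genes that include *Bcl2l11*, which codes for the death-promoting BIM (2.84, other probe 1.72). *Bbc3*, which codes for PUMA, was at −0.016 (adjusted p of limma = 0.911), and *Bcl2*, known to be repressed by CHOP, was at 0.16 (adjusted p of limma = 0.316). With spiked-in scaling both were called lower, at −1.30 (adjusted p of limma = 0.000444) for *Bbc3* and −1.13 (adjusted p of limma = 0.000767) for *Bcl2*. Of 5 C/EBP targets tested out of 8, 5 were higher, with a median of 1.14, and *Saa3*, *Orm1* and *Csf3* were not bright enough to be tested. *Il6* rose 32.5-fold and *Ptgs2*, the gene of an inducible prostaglandin synthase, 27.3-fold, while the acute-phase genes *Hp* and *Lcn2* were at 0.90 and 0.53 and turned to −0.39 and −0.76 with spiked-in scaling. Under that scaling 2 of the 5 were higher and 2 lower, at a median of −0.14 against −1.13 for all genes.

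Of 11 genes of the other arms of the unfolded protein response, 8 were higher and 3 did not pass, with a median of 0.81. *Ern1*, which codes for the sensor IRE1α, rose 27.9-fold, whereas its other probe was at 0.90, and the chaperone gene *Pdia4* was at 1.14. *Atf6* and *Atf6b*, genes of sensor factors of the bZIP class, were at −0.043 and −0.24 (adjusted p of limma = 0.0561). *Atf6b* was called lower with the methods' t-test, with the stricter filter, with the percentile over detected probes (−0.39) and with spiked-in scaling (−1.53), and *Atf6* with spiked-in scaling (−1.33). With spiked-in scaling 1 of the 11 was higher and 6 lower, at a median of −0.48 against −1.13 for all genes, and *Pdia4* was at −0.15 (adjusted p of limma = 0.257).

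Of 8 genes whose proteins control the stability or activity of ATF4 or C/EBP proteins, 5 were higher and 3 lower, at a median of 0.90. With spiked-in scaling 3 were higher and 4 lower. *Btrc* and *Fbxw7*, which code for parts of ubiquitin ligases, fell by 3.18 and 1.64, with their other probes at −0.70 and −1.01. *Egln3*, a prolyl hydroxylase gene, rose by 2.10. Of 18 other bZIP genes tested out of 19, 9 were higher, 1 was lower and 8 did not pass, at a median of 0.26 that lay near that of all genes. With spiked-in scaling 1 was higher and 15 were lower. *Nfil3*, the nearest to *Atf3* in profile, rose 13.4-fold. *Creb1* has no settled direction, with its brightest probe at 1.23 and the other at −1.26. *Atf2*, the 1 called lower, was at −0.31 with its brightest probe (adjusted p of limma = 0.0301) and from 0.52 to 1.98 with its other 3, and the call was lost with the replicate block, without the filter on dim probes, with the mean over probes and without untreated replicate 1 or 2 or OGD replicate 2. *Batf2* was at −0.44 (adjusted p of limma = 0.125) but at 0.72 with normexp (adjusted p of limma = 0.000185) and at −0.70 without OGD replicate 1 (adjusted p of limma = 0.0118). With the members at a median of 1.88, 5 of 8 past 2-fold compare with 3 of these 18 relatives, a difference that was not tested.

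**Figure D5:**
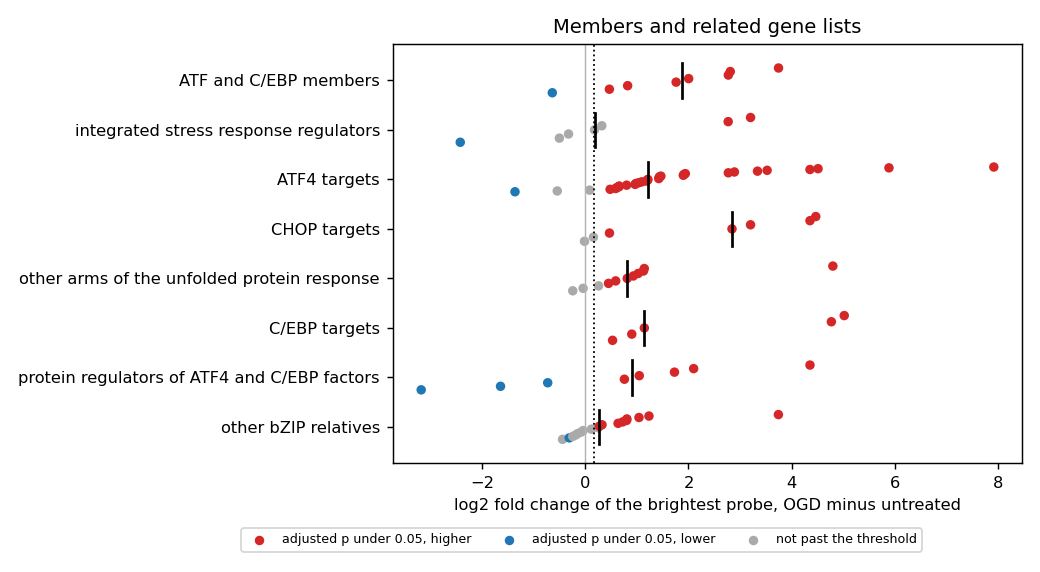
Difference between OGD and untreated AECs (log2, brightest probe of each gene) for the members and 7 related lists, each point 1 gene, colored by the adjusted p of limma at 0.05, with a black bar at each list's median and a dotted line at the median of all genes. The members' median is 1.88 and that of the other bZIP relatives 0.26; *Trib3*, *Ppp1r15a*, *Atf6* and *Atf6b* stand in more than 1 list, and the point farthest right is the fitted value of *Fgf21*.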

How the data were processed

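RNA of 2 untreated and 2 OGD-treated AECs was hybridized to 4 one-color arrays. The deposited intensity is the processed signal that the authors obtained with Agilent Feature Extraction (11.5.1.1 in the submitters' processing notes), background-subtracted and not normalized between arrays. The series table, also deposited by the authors, repeats this intensity. Probe positions are on mm9, per the file headers.

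After control and outlier spots had been dropped, log2 signals were averaged over a probe's spots, and the 75th percentile of the array was taken off. A probe was kept if it stood well above background on both arrays of 1 group or more and had a value on all 4 arrays, which 106 probes lacked because of an outlier spot. The groups were compared over 28163 probes with lmFit and eBayes (limma 3.58.1, R 4.3.3), and p-values were adjusted by Benjamini-Hochberg (threshold 0.05). A gene was read by its brightest probe. Steps were tested on simulated data. Python 3.11.15 with scipy 1.17.1, numpy 2.4.6, pandas 2.3.3 and matplotlib 3.10.9 served for tables and figures.

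The members and gene lists were chosen with earlier results of these data known. Named were all members, the 2 genes with the largest rise and the 2 with the largest fall of each list, genes past 10-fold, and the 3 probes most like the outermost members. *Asns*, *Bcl2l11*, single cell type markers and the 3 C/EBP targets that were not tested fall outside that rule and were chosen after the values had been seen.

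Alternatives were the methods' t-test with Benjamini-Hochberg adjustment, the replicate number as a block, normexp (offset 50), quantile normalization, spiked-in scaling, the percentile over detected probes, no filter or a stricter filter, outlier spots kept, the series table, the mean over a gene's probes, each array left out, and limits of 2-fold and 10-fold. Arrays have no read depth, and 2 arrays a group limit the precision. P-values rest on the spread between the arrays of a group, in which differences of culture and of array are not told apart. For limma, part of that spread is shared across probes.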

Additional observations from a re-analysis of the deposited data

How the results depend on the processing

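*Atf3*, *Atf4*, *Cebpb*, *Cebpg* and *Ddit3* kept their direction and their side of the threshold under every alternative run. The difference of *Atf5* turned with quantile normalization (−0.31) and with spiked-in scaling (−0.82), and that of *Cebpd* turned with spiked-in scaling (−0.47) and was 0.016, not past the threshold, with quantile normalization. *Cebpa* did not pass with normexp (−0.16), nor did *Cebpa* (−0.64, adjusted p of 0.0510) and *Atf5* (0.47, adjusted p of 0.0700) with the methods' t-test. The number of members lower was 0 with the methods' t-test, with normexp and with the 2-fold and 10-fold limits, 2 with quantile normalization and 3 with spiked-in scaling. The number of members higher was 1 at the 10-fold limit. The causes were not tested.

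Probes higher numbered 10689 and probes lower 7645. With spiked-in scaling these were 1263 and 23105, with the 2-fold limit 3928 and 4166, with the 10-fold limit 229 and 148, and with normexp 17722 were higher. With spiked-in scaling the genes higher numbered 11 ATF4 targets, 1 of the other arms of the unfolded protein response, 2 C/EBP targets, 3 protein regulators and 1 other bZIP relative. Quantile normalization left 4 of the other arms higher. The 2-fold limit left 4 of the other arms, 3 C/EBP targets and 3 other bZIP relatives. The 10-fold limit left 0 regulators of the integrated stress response, 6 ATF4 targets, 2 CHOP targets, 1 of the other arms, 2 C/EBP targets, 1 protein regulator and 1 other bZIP relative.

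Leaving out each array in turn gave 3.68 to 3.81 for *Atf3*, 1.98 to 2.03 for *Atf4*, 0.40 to 0.54 for *Atf5*, −0.73 to −0.55 for *Cebpa*, 2.75 to 2.88 for *Cebpb*, 0.78 to 0.86 for *Cebpd*, 1.71 to 1.81 for *Cebpg* and 2.71 to 2.84 for *Ddit3*, and 2.92 to 3.15 for the dimmer *Atf4* probe. A group left with 1 array was taken to vary like the other. *Atf5* and *Cebpa* did not pass without untreated replicate 1 (adjusted p of limma = 0.0787 and 0.0581) or 2 (0.130 and 0.0733). Members lower ranged from 0 to 1 and members higher from 6 to 7. The genes higher ranged from 2 to 3 for stress response regulators, 23 to 28 for ATF4 targets, 4 to 5 for CHOP targets, 6 to 9 for the other arms, 3 to 5 for C/EBP targets, 4 to 5 for protein regulators and 6 to 8 for other bZIP relatives. Probes higher ranged from 5885 to 11019 and probes lower from 4827 to 8133.

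Whether the replicate numbers pair the samples is not stated. Deviations of same-numbered arrays from their group means correlated at −0.034 over probes. With so few arrays a group, that value cannot decide whether the samples were paired. With the replicate number as a block, all 8 members stayed on their side (adjusted p of limma = 0.0289 for *Atf5* and 0.0181 for *Cebpa*), and 9909 probes were higher and 7289 lower.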
